A study of Homo sapiens with 24 samples.

Results

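What TRAIL added to cells that already received propionate and acetate was measured in HT29, an established cell line grown from a human colon adenocarcinoma. The comparison sets the 4 arrays of TRAIL+C3/C2 against the 4 arrays of C3/C2, that is 8 of the 24 arrays of the series. C3/C2 is a mixture of 30 mM propionate and 15 mM acetate, given for 6 h. TRAIL+C3/C2 is the same mixture with TRAIL at 100 ng/ml, crosslinked by 2 µg/ml of the anti-Flag M2 antibody, for the same 6 h. Both groups received the acids, while the antibody, like TRAIL, was given to the co-treated cells alone, so the comparison holds TRAIL and its antibody together. The other 16 arrays hold untreated cells (NT), TRAIL, SN (a propionibacterial culture supernatant) and TRAIL+SN, with 4 arrays each, and served to ask whether the TRAIL difference was changed in the absence of added acids or in SN. SN was diluted to 1/2 and, by the study's methods, itself contains propionate and acetate, at amounts that those of C3/C2 were chosen to match. RNA from each culture was labelled with Cy3 and hybridised alone to an Agilent whole human genome array.

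Slide and group could not be told apart in this comparison. Replicate 1 of C3/C2 lay on slide 1, the other C3/C2 replicates on slide 2, and all TRAIL+C3/C2 replicates on slide 4. NT was spread like C3/C2, SN and TRAIL lay on slide 3, and TRAIL+SN on slide 4. The TRAIL+C3/C2 arrays were dimmer. The 75th percentile of intensity, to which each array was scaled, was 453 to 518 with TRAIL+C3/C2 and 769.9 to 899 with C3/C2 (exact permutation test, two-sided, p = 0.0286, the smallest that 4 against 4 arrays allow). The share of probes marked by the scanner software as well above background was 53.5% to 56.8% against 59.1% to 60.6% (exact permutation test, p = 0.0286). Levels are given as log2 intensity relative to that percentile, and differences on the same log2 scale, where 1 is a 2-fold difference. The number of arrays limits the precision, and the standard error (SE) of a log2 difference had a median of 0.108 over genes. In bulk RNA, fewer cells of a type and less RNA per cell cannot be told apart. Of 15 intestinal epithelial markers, 14 lay well above background on all 8 arrays, among them CDH1, EPCAM, VIL1 and CDX2. The leukocyte, endothelial and fibroblast markers COL1A2, COL3A1, MS4A1 and PDGFRB lay above it on none, although 8 of the 15 genes of that list, PTPRC and CD14 included, did so on all 8. The summed level of the latter list was 2.06 to 2.36 with C3/C2 and 2.1 to 2.45 with TRAIL+C3/C2, against 9.99 to 10.15 and 10.54 to 10.59 for the epithelial list.

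TRAIL is a ligand of the tumour necrosis factor superfamily. It binds the death receptors TNFRSF10A and TNFRSF10B, which recruit FADD and caspase-8 into a complex that starts apoptosis, and CFLAR can hold that complex back. The same receptors can also pass signals through TRAF2 and RIPK1 to the transcription factor NF-kB, a family of RELA, RELB, REL, NFKB1 and NFKB2 dimers that bind short motifs called kB sites. NF-kB is known for inducing chemokines, cytokines, adhesion molecules and survival genes in epithelial cells, and also its own inhibitors NFKBIA and TNFAIP3.

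A gene was called where it differed at least 2-fold and its adjusted p lay under 0.05 (limma over all 24 arrays, Benjamini-Hochberg adjustment over the 20703 genes tested). With TRAIL added to C3/C2, 330 genes were called higher (1.59% of those tested) and 442 lower (2.13%). The largest rises among named genes included TNF, chemokines, IL17C, ICAM1 and inhibitors of NF-kB. The falls, described after the rises, were for the larger part also low on the arrays of SN, which holds no TRAIL.

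**Figure D1:**
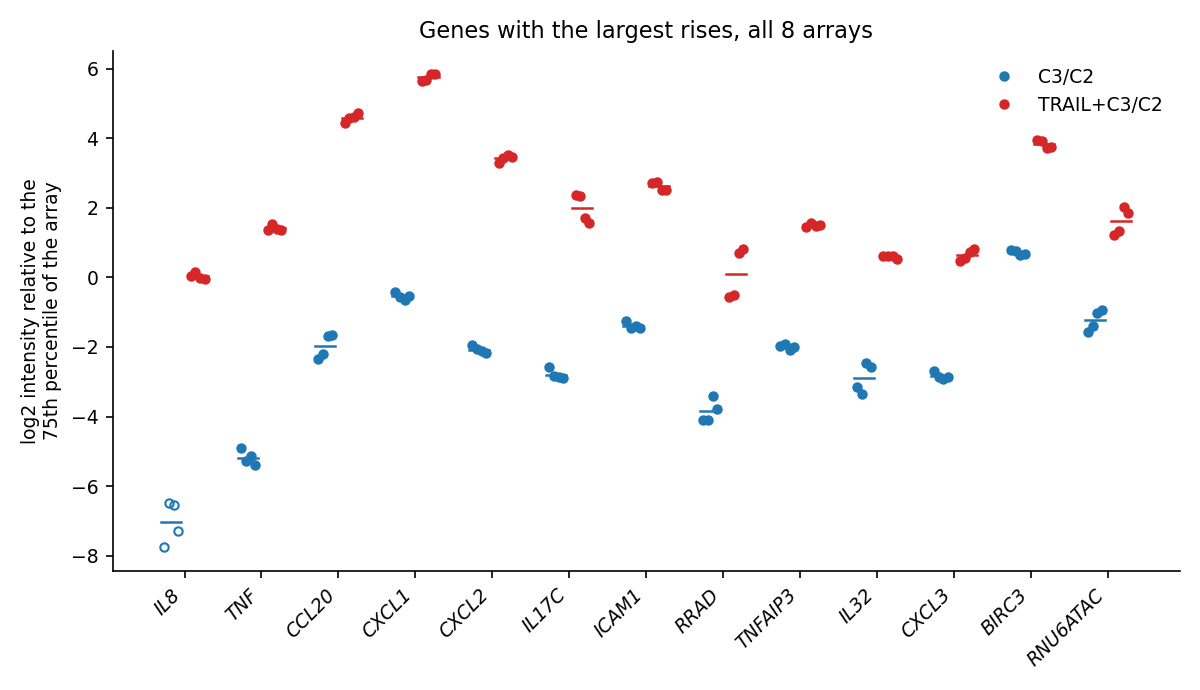
Log2 level, scaled to each array's 75th percentile (vertical axis), in the 4 C3/C2 arrays (blue) and the 4 TRAIL+C3/C2 arrays (red) for IL8 and the 12 genes with the largest rises measured in both groups; dashes are means and open points were not well above background. The 12 were chosen among genes whose 2 groups do not overlap, which was so for 7229 of the 20703 genes tested. TNF goes from between −5.4 and −4.91 to between 1.36 and 1.53.

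Of 38 named genes called higher, 28 had a promoter in the table. A kB motif before the start was held by 14 of these, while TNF held none. The promoters of 8 of the 14 are shown. Those of CCL20, IL32, CXCL10, LTB, UBD and IRF1 also held a motif and are not shown. The windows are 60 bases of RefSeq sequence (GRCh38.p14), 5′ to 3′ on the strand of the gene and upstream of its start, with motif letters in capitals. GGAATTTCC and the longer kB consensus, which can overlap it, were searched on both strands.
CXCL1 (chr4:73869289-73869348, plus strand): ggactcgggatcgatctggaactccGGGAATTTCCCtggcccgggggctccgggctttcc
CXCL2 (chr4:74099239-74099298, minus strand): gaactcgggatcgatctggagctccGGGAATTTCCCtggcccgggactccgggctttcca
CXCL3 (chr4:74038734-74038793, minus strand): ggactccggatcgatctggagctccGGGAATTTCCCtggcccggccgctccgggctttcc
CXCL8, the gene called IL8 here (chr4:73740452-73740511, plus strand): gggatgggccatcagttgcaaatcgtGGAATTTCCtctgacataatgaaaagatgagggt
ICAM1 (chr19:10270908-10270967, plus strand): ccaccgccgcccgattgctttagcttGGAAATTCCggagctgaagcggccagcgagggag
NFKBIA (chr14:35404796-35404855, minus strand): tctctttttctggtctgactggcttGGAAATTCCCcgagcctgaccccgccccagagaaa
TNFAIP3 (chr6:137867173-137867232, plus strand): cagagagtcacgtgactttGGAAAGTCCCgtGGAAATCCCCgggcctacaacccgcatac
BIRC3 (chr11:102317324-102317383, plus strand): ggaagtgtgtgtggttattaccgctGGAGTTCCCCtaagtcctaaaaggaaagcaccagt

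The first 3 windows, of the neighbouring paralogues CXCL1, CXCL2 and CXCL3, share nearly the same letters around the motif. Promoters of 300 bases (250 before to 50 after the start) were matched for 106 of the 330 genes called higher, and 12 of them (11.3%) held GGAATTTCC. The motif was in 52 of 10291 matched promoters of the genes tested (0.505%) and in 2 of 98 of the genes called lower (2.04%). For the kB consensus the shares were 29.2%, 6.83% and 3.06%. These shares describe letters in a window and say nothing of a factor bound there.

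Chemokines, secreted proteins that draw leukocytes, were among the largest rises. Of 20 listed, 15 were tested, of which 8 were called higher and 1 lower. Their median log2 difference was 1.29, against 0.03 for all genes tested. IL8, which encodes a neutrophil attractant, was measured on chromosome 4 of hg19 from 74607982 to 74608041. Its level was 0.04, 0.16, −0.01 and −0.05 on the TRAIL+C3/C2 arrays. It was well above background on no C3/C2 array, which gives a rise of at least 56.3-fold (limma, adjusted p = 1.75e-12). For this bound, each dim array was given the lowest level of any probe that cleared background there, or the gene's own level if higher, and the mean of the bright arrays was set against their mean. The other IL8 probe had a fitted difference of 3.34. Its C3/C2 mean of −7.59 lay under the lowest levels that cleared background on those arrays (−5.80 to −5.77). CCL20, which attracts dendritic cells and lymphocytes to the mucosa, lay at −2.36, −2.2, −1.68 and −1.64 with C3/C2. With TRAIL+C3/C2 it lay at 4.45, 4.59, 4.6 and 4.72. The groups were far apart, with a difference of 6.56 (SE 0.23, 94.5-fold, limma, adjusted p = 1.08e-14).

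CXCL1, another neutrophil attractant, lay between −0.66 and −0.43 with C3/C2 and between 5.64 and 5.83 with TRAIL+C3/C2. The rise was 6.29 (SE 0.14, 78.3-fold, limma, adjusted p = 1.61e-17), and its other probe rose by 6.17. CXCL2 rose by 5.50 (SE 0.14, 45.2-fold) and CXCL3 by 3.47 (SE 0.14, 11.1-fold). These 3 genes are close paralogues, and cross-hybridisation of their probes was not tested. CXCL10, an attractant of T cells known as interferon-inducible, was above background on all TRAIL+C3/C2 arrays and on no C3/C2 array, at least 4.02-fold higher. CXCL6 (2.28) and CX3CL1 (1.29) were the other members called higher. CXCL5 was the member called lower, from −2.33, −1.55, −1.41 and −1.42 with C3/C2 to between −3.69 and −3.26 (difference −1.83, SE 0.20, limma, adjusted p = 7.57e-07). It was named after its values were seen. It was also low in SN (mean −3.97), had all arrays of slides 3 and 4 below those of slides 1 and 2, and just lost the call with normexp background correction. CXCL9, CXCL11, CCL2, CCL5 and CCL22 did not pass the background filter. When background had to be passed on all 8 arrays, 4 of the 8 calls were left.

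Cytokines of the TNF superfamily and the interleukins followed. TNF, the prototype of the superfamily, lay at −4.91, −5.29, −5.13 and −5.4 with C3/C2 and at 1.37, 1.53, 1.4 and 1.36 with TRAIL+C3/C2. The difference was 6.59 (SE 0.24, 96.6-fold, limma, adjusted p = 3.99e-14), and all 4 arrays of a group lay close together. LTB, a membrane-bound lymphotoxin, rose by 2.52 (SE 0.20) and TNFRSF6B, a soluble decoy receptor for FASLG, by 2.39 (SE 0.20). TNFRSF9 (1.99) and CD70 (1.14) completed the 5 of 15 tested members called higher, with none called lower and a median of 0.44. The 5 became 3 with normexp background correction. Of 21 interleukins and colony-stimulating factors, 14 were tested, 6 were called higher and none lower, with a median of 0.76. IL17C, a cytokine that epithelial cells make, lay at −2.58, −2.84, −2.87 and −2.9 with C3/C2 and at 2.37, 2.34, 1.7 and 1.57 with TRAIL+C3/C2. Replicates 1 and 2 of TRAIL+C3/C2 thus lay above replicates 3 and 4, and both pairs stood far above C3/C2 (difference 4.79, SE 0.21, 27.8-fold, limma, adjusted p = 6.68e-13). IL32, a secreted inflammatory protein, rose by 3.47 (SE 0.24) and CSF2, a growth factor of granulocytes and macrophages, by 2.33 (SE 0.17; 3 of 4 C3/C2 arrays above background). IL1B, IL23A and IL1A were called as well, with 1.99, 1.83 and 1.61, where IL1A was above background on 1 of 4 C3/C2 arrays. IL6 did not pass the filter.

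The NF-kB system itself rose in most of its parts. Of 22 subunits, inhibitors and kinases, 21 were tested and 9 were called higher, with none lower and a median of 0.97. Past the adjusted p at any fold were 17, where 21.3% of all genes tested were higher and 14.1% lower by that rule. TNFAIP3, a ubiquitin-editing inhibitor of the pathway, lay between −2.09 and −1.93 with C3/C2 and between 1.46 and 1.57 with TRAIL+C3/C2 (difference 3.50, SE 0.09, 11.3-fold, limma, adjusted p = 1.25e-16). NFKBIA, which holds NF-kB in the cytoplasm, lay at 3.45, 3.33, 4.06 and 4.02 with C3/C2 and at 5.6, 5.6, 5.81 and 5.83 with TRAIL+C3/C2. It rose by 2.00 (SE 0.13, 3.99-fold). RELB, a subunit of the non-canonical branch, rose by 2.24 (SE 0.08, 4.72-fold) and its partner NFKB2 by 1.57. BCL3, NFKBIE, NFKBIZ, IKBKE and MAP3K8 were the other members called. Among 12 tested survival targets of NF-kB, BIRC3 and IER3 were called higher and none was called lower. BIRC3, an inhibitor of apoptosis, lay at 0.78, 0.77, 0.65 and 0.68 with C3/C2 and at 3.95, 3.93, 3.73 and 3.74 with TRAIL+C3/C2 (difference 3.12, SE 0.12, 8.68-fold, limma, adjusted p = 9.06e-14). IER3, an early stress response gene, rose by 1.87 (SE 0.05). The median of this list was 0.23.

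Of 22 adhesion, acute phase and defence genes, 14 were tested and 5 were called higher. ICAM1, the adhesion molecule that leukocytes bind, lay between −1.47 and −1.24 with C3/C2 and between 2.52 and 2.74 with TRAIL+C3/C2. It rose by 4.01 (SE 0.10, 16.1-fold, limma, adjusted p = 4.37e-17). The complement component C3 rose by 2.20 (SE 0.21) and the syndecan SDC4 by 1.84. PI3, a protease inhibitor of mucosal surfaces, rose by 1.30 (SE 0.10), and by 0.79 with spike-in scaling, below the fold. UBD, a ubiquitin-like modifier, was called with a fitted difference of 2.22, but it was well above background on no C3/C2 array and on 1 of 4 TRAIL+C3/C2 arrays, and no fold is given. The 13 tested pattern recognition and inflammasome genes had none called in either direction, with values from −0.56 to 0.88.

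**Figure D2:**
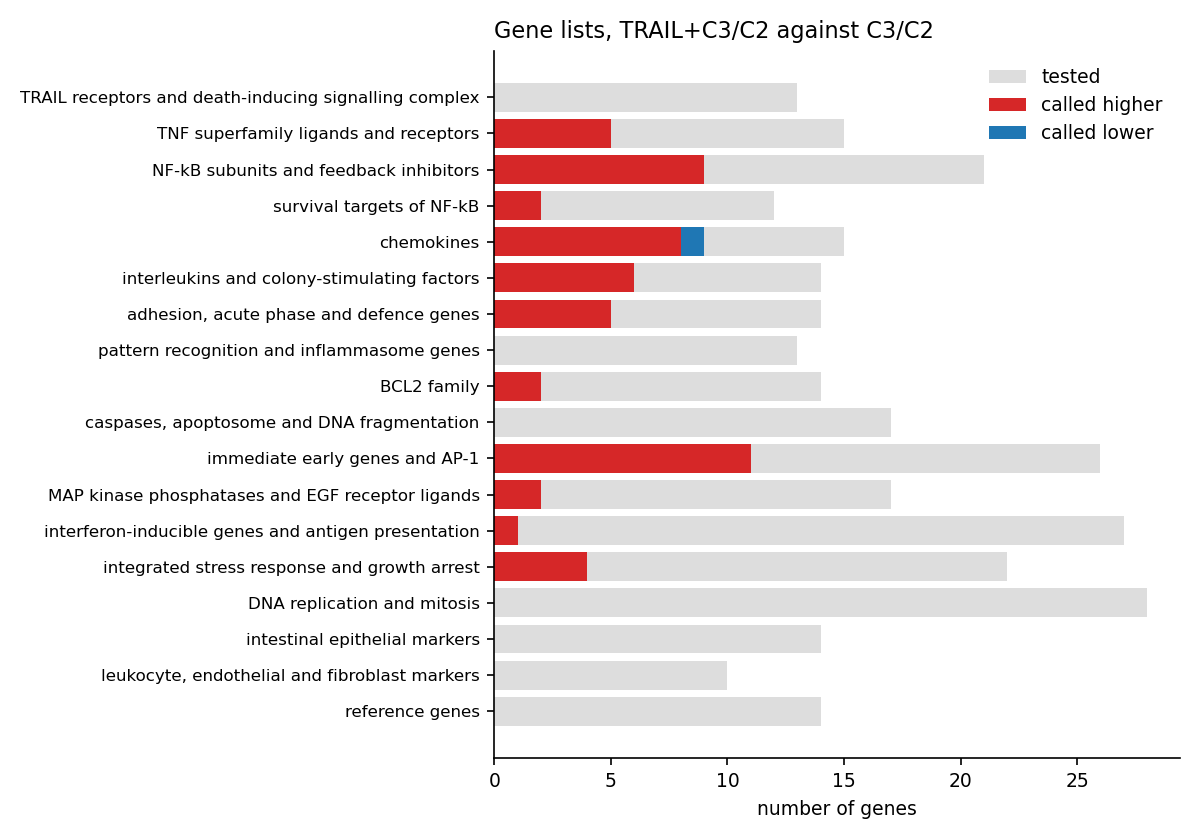
Number of genes per list (horizontal axis) that were tested (grey), called higher (red) or called lower (blue) in TRAIL+C3/C2 against C3/C2. Chemokines (8 of 15), NF-kB genes (9 of 21) and immediate early genes (11 of 26) hold most calls, and the lists of TRAIL receptors, caspases, and DNA replication and mitosis hold none.

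The genes that receive the TRAIL signal moved little. None of the 13 genes for TRAIL, its receptors and the death-inducing complex was called, and their median was 0.08. Past the adjusted p, at less than 2-fold, were TNFRSF10A (0.66, SE 0.09), TNFRSF10B (0.61, SE 0.10), the decoy receptor TNFRSF10D (0.43, SE 0.07) and TRAF2 (0.44, SE 0.06), all higher, and the soluble decoy TNFRSF11B (−0.48, SE 0.09), lower. TNFRSF10B lay at 3.33, 3.31, 3.12 and 3.21 with C3/C2 and at 4.01, 4.07, 3.66 and 3.67 with TRAIL+C3/C2, without overlap. The values of TNFSF10, which encodes TRAIL itself (0.05, SE 0.15), TNFRSF10C (0.08, SE 0.33), FADD (−0.0026, SE 0.06), CASP8 (−0.17, SE 0.08), CASP10 (−0.22, SE 0.09), RIPK1 (−0.14, SE 0.07) and TRADD (0.08, SE 0.06) did not pass the adjusted p. CFLAR was read by 4 probes, and all of them lay higher with TRAIL+C3/C2, by 0.26, 0.45, 0.50 and 0.64. The first of these, which represents the gene, did not pass the adjusted p (limma, 0.0689), and the others did, below 2-fold. For CASP10 the chosen probe and the others, at 0.63 each, differed in sign. Differences of this size depend on scaling. With spike-in scaling the median difference of all genes tested was −0.475, against 0.035 here, so the smaller of these values can change sign.

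Genes that carry out or restrain apoptosis showed few calls. Of 14 tested members of the BCL2 family, PMAIP1 and BBC3 were called higher, both of them BH3-only proteins that promote apoptosis, and none lower. PMAIP1 lay at −0.31, −0.26, −0.46 and −0.36 with C3/C2 and at 1.19, 1.22, 1.38 and 1.47 with TRAIL+C3/C2. Its rise was 1.67 (SE 0.09, 3.17-fold, limma, adjusted p = 4.97e-11). BBC3 rose by 1.07 (SE 0.08), just past the fold, and was no longer called with quantile normalization (0.93), spike-in scaling (0.56) or normexp background correction (0.996). None of the 17 caspases, apoptosome and DNA fragmentation genes was called, with values from −0.37 to 0.63. Calls were also absent among the 28 genes of DNA replication and mitosis (median 0.04), the 14 tested epithelial markers (median 0.16), the 10 tested markers of leukocytes, endothelium and fibroblasts (median −0.12) and the 14 reference genes (median 0.13). Past the adjusted p at any fold were 5 replication and mitosis genes higher and 4 lower, 4 epithelial markers higher and 3 lower, 2 of the other cell markers lower, and 6 reference genes higher and 2 lower, to be read against the 21.3% and 14.1% of all genes.

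Immediate early genes, which are induced within minutes of a stimulus and many of which encode transcription factors, rose together by a smaller size. Of 26 tested, 11 were called higher and none lower, and their median was 0.80. Past the adjusted p at any fold were 23 higher and 1 lower, against 21.3% and 14.1% of all genes tested. EGR1 lay at −0.06, −0.05, 0.38 and 0.46 with C3/C2 and at 1.87, 1.83, 2.52 and 2.46 with TRAIL+C3/C2. In both groups replicates 3 and 4 thus lay above replicates 1 and 2, and the groups did not overlap (difference 1.99, SE 0.33, limma, adjusted p = 8.95e-05). FOSB rose by 1.54 (SE 0.19) and FOSL1 by 1.50 (SE 0.08), both of the AP-1 family. JUNB, MAFF, FOS, ZFP36, ATF3, EGR2, CTGF and KLF4 rose by 1.00 to 1.45. Of the 11 calls, 2 were left under spike-in scaling, which moves the median difference of all genes to −0.475. DUSP2, a phosphatase of MAP kinases, rose by 1.20 (SE 0.14) and EREG, a ligand of the EGF receptor, by 1.11 (SE 0.11). They were the called members of 17 tested, with DUSP5 (0.997) just under the fold. For this list, without TRAIL+C3/C2 replicate 1 there were 4 in place of 2, and with spike-in scaling 0.

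Among 22 genes of the integrated stress response and growth arrest, 4 were called higher and none lower. GADD45G, a growth arrest gene, lay at 0.31, 0.3, 0.44 and 0.48 with C3/C2 and at 2.49, 2.5, 3.17 and 3.14 with TRAIL+C3/C2 (difference 2.44, SE 0.21, 5.45-fold, limma, adjusted p = 1.99e-08). The inhibitors of cyclin-dependent kinases CDKN2B and CDKN1A rose by 1.73 (SE 0.13) and 1.28. PPP1R15A, which lets translation resume after stress, rose by 1.53 (SE 0.17). ATF4, DDIT3, TRIB3, CHAC1 and ASNS, the core of the amino acid response, were not called, with values from 0.03 to 0.68. IRF1 was the member called of 27 tested interferon-inducible and antigen presentation genes, with a rise of 1.67 (SE 0.10).

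Some of the larger rises lay outside these lists. RRAD, a small GTPase, lay at −4.09, −4.09, −3.41 and −3.77 with C3/C2 and at −0.56, −0.51, 0.7 and 0.81 with TRAIL+C3/C2 (difference 3.95, SE 0.38, 15.5-fold, limma, adjusted p = 1.13e-07). RNU6ATAC, a small RNA of the minor spliceosome, rose by 2.84 (SE 0.21, 7.14-fold). ERO1LB, an oxidase of the endoplasmic reticulum, was above background on all TRAIL+C3/C2 arrays and on no C3/C2 array, at least 3.18-fold higher. Small non-coding RNAs were examined as a group after values such as that of RNU6ATAC were seen. Of 253 small nuclear, nucleolar, Cajal body, vault and RNase P RNAs tested, 21 were called higher and 3 lower, with a median of 0.43. Of all genes tested, 1.59% were called higher and 2.13% lower, with a median of 0.03. With spike-in scaling the latter median was −0.475, a shift about as large as the median of the small RNAs, whose rise thus depends on scaling. For TRAIL against NT the median of these RNAs was 0.30, with 3 called higher and 3 lower. For TRAIL+SN against SN it was 0.39, with 5 called higher and 0 lower. RNU11 (1.69) and RNU12 (1.43), also of the minor spliceosome, RPPH1 (1.30), the RNA of ribonuclease P, and RN7SK (1.10), which restrains transcription elongation, were among the 21. Unnamed or uncharacterised transcripts made up 166 of the 330 genes called higher, and 287 of the 442 called lower (64.9%), against 32.3% of all genes tested, so the named genes describe a part of each set.

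Whether the TRAIL difference depended on the acids was tested as the difference with C3/C2 minus that without, (TRAIL+C3/C2 − C3/C2) − (TRAIL − NT), in the same fit. NT and C3/C2 were spread alike over slides 1 and 2, which leaves slide 4 against slide 3 in this test. Without acids, TRAIL against NT called 155 genes higher (0.749%) and 452 lower (2.18%). The test called 102 genes above 0, that is with a larger rise or a smaller fall in the presence of acids (0.493%), and 34 below (0.164%). With the replicate numbers as a block, the count below was 53 in place of 34. Of the 102 genes above, 85 were called higher when TRAIL joined C3/C2 (1.59% of all genes tested) and 8 with TRAIL alone (0.749% of all). Of the 34 below, 20 were called higher with TRAIL alone. These overlaps follow largely from the way the difference is formed and are no separate result. CXCL1 and CXCL2 were among the largest above. CXCL1 rose by 3.85 with TRAIL alone and by 6.29 with C3/C2 present (difference of both 2.45, SE 0.20, limma, adjusted p = 1.5e-07). CXCL2 rose by 3.04 alone and by 5.50 with C3/C2 (difference 2.45, SE 0.20, limma, adjusted p = 1.77e-07), and ICAM1 by 2.41 and 4.01 (difference 1.60, SE 0.14, limma, adjusted p = 3.24e-07).

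GADD45G rose by 0.12 with TRAIL alone, with an adjusted p of 0.72, and by 2.44 with C3/C2 (difference 2.33, SE 0.30, limma, adjusted p = 7.63e-05). TNFRSF4, a costimulatory receptor, rose by 0.59 alone and 2.54 with C3/C2 (difference 1.95, SE 0.22). NCF1, a subunit of the phagocyte oxidase with near-identical pseudogene copies, fell by 0.53 alone and rose by 1.84 with C3/C2 (difference 2.37, SE 0.21, limma, adjusted p = 3.88e-07). Its other, dimmer probe showed no such fall, with −0.07 with TRAIL alone, and rose by 1.06 (SE 0.23) with C3/C2. The difference of PMAIP1 (0.99, SE 0.13, limma, adjusted p = 0.00013) fell just short of the fold, and that of TNF (0.97, SE 0.35) did not pass the adjusted p (0.151). BIRC3 rose by 3.36 alone and 3.12 with C3/C2, a difference of −0.24 (SE 0.17) that did not pass the adjusted p (0.541). IL8 was above background on no array of NT or C3/C2, so its difference of 2.73 (SE 0.46) has no measured base.

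Of the 34 genes below 0, 7 were called lower with TRAIL added to C3/C2, against 2.13% of all genes tested. The genes measured in all 4 groups with the largest differences were among those that rose with TRAIL alone, which the form of the difference favours. LTB lay at a mean of −4.83 in NT, 0.53 with TRAIL, −4.63 with C3/C2 and −2.10 with TRAIL+C3/C2. It rose by 5.36 without and by 2.52 with C3/C2 (difference −2.84, SE 0.29, limma, adjusted p = 3.98e-06). For IL4I1, a secreted amino acid oxidase, the level was 2.48 ± 0.07 (SD, n = 4) with TRAIL and 2.47 ± 0.24 with TRAIL+C3/C2, while C3/C2 (−0.09 ± 0.12) stood above NT (−2.33 ± 0.21). Its difference was −2.25 (SE 0.16, limma, adjusted p = 3.03e-08). PI3 reached 2.66 ± 0.23 with TRAIL and 1.20 ± 0.05 with TRAIL+C3/C2 (difference −1.66, SE 0.14). MCAM, an adhesion molecule, rose by 1.84 with TRAIL alone and lay higher by 0.26 with C3/C2, which did not pass the adjusted p (difference −1.58, SE 0.16). For ICAM2, another adhesion molecule, the values were 2.01 and 0.55 (difference −1.46, SE 0.36), a call that was lost without C3/C2 replicate 1 or 2 or TRAIL+C3/C2 replicate 3 or 4 (limma, adjusted p of 0.0558 to 0.0714). ITGAM, an integrin of myeloid cells and on the list of leukocyte markers, had a difference of −2.84 (SE 0.14, limma, adjusted p = 1.24e-10), with 2.33 with TRAIL alone and −0.51 with C3/C2. It was above background on all arrays of NT, TRAIL and C3/C2 and on 3 of 4 of TRAIL+C3/C2, and was named after its values were seen.

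**Figure D3:**
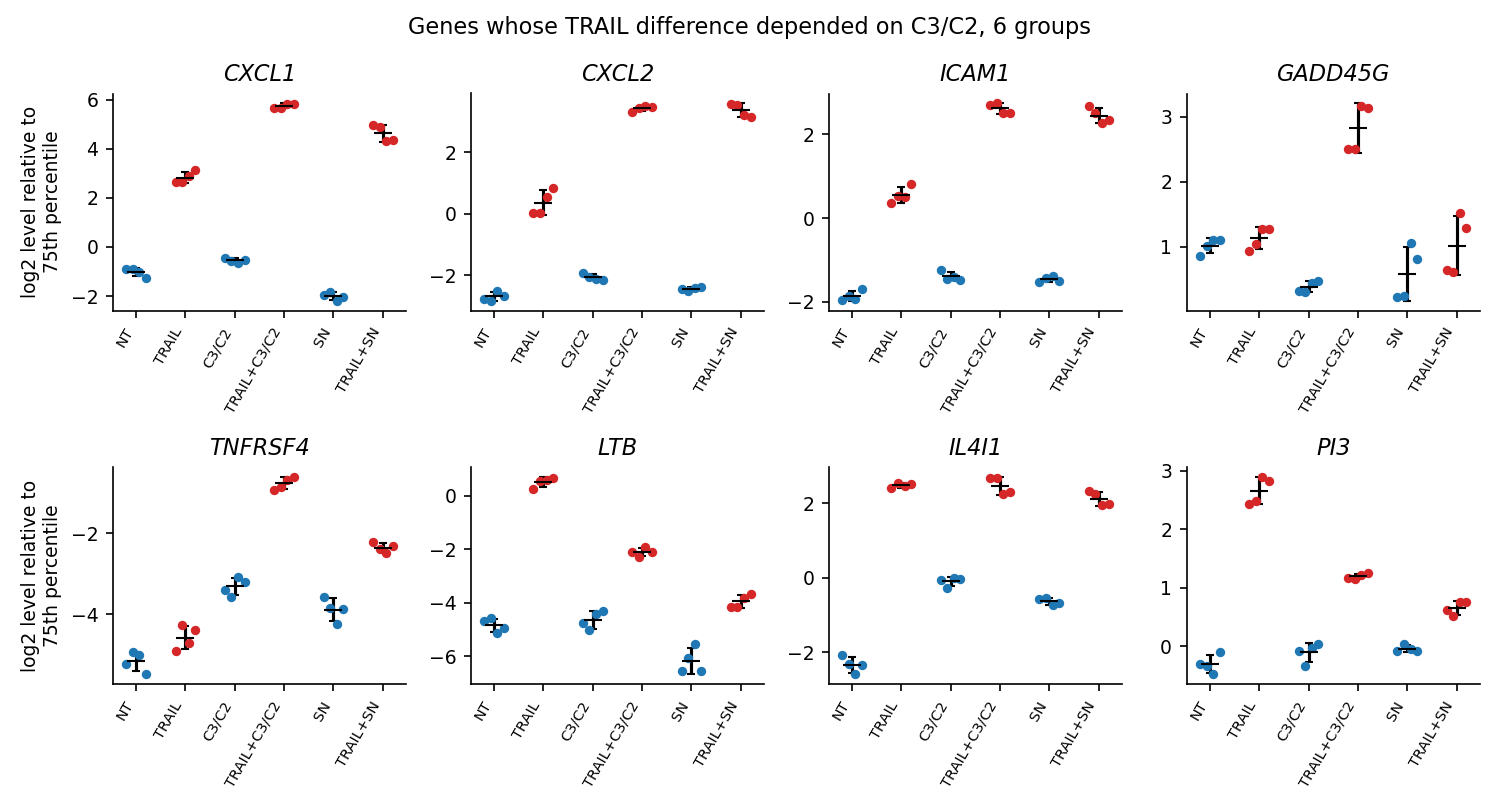
Log2 level, scaled to each array's 75th percentile (vertical axes, each with its own range), of 8 genes in the 6 groups, with 4 arrays each as points (red with TRAIL, blue without), and mean and SD in black. CXCL1, CXCL2 and ICAM1 rise further with C3/C2 than without, GADD45G stands apart in TRAIL+C3/C2, and LTB, IL4I1 and PI3 rise less with C3/C2.

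SN is the comparison most like C3/C2. TRAIL+SN against SN called 188 genes higher (0.908%) and 34 lower (0.164%), on slides 4 and 3. Of the 330 genes called higher with C3/C2, 108 were also called with SN, that is 32.7% of those with C3/C2 and 57.4% of those with SN, and 77 were called with TRAIL alone, which is 23.3% of those with C3/C2 and 49.7% of those with TRAIL. In all 3 comparisons 50 were called, and 195 in none but that with C3/C2. Those 195 had a median of 1.29 with C3/C2, 0.38 with TRAIL alone and 0.49 with SN, an order largely set by their choice. In the tests of the difference against both, 42 of them were above 0. That count reuses the values by which the 195 were chosen and is no independent check. Directly tested, the TRAIL difference with C3/C2 was above that with SN for 91 genes (0.44%) and below for 451 (2.18%). GADD45G was among those above (2.02, limma, adjusted p = 0.000132), as was RNU6ATAC (1.30), while NFKBIA was below (−1.18, limma, adjusted p = 0.000188), since it rose by 3.18 with SN. CCL20 (−0.65), CXCL1 (−0.35), ICAM1 (0.10) and TNFAIP3 (−0.03) did not pass the adjusted p in this test. Of the 451 genes below, 264 had all 16 arrays of slides 3 and 4 under all 8 arrays of slides 1 and 2.

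**Figure D4:**
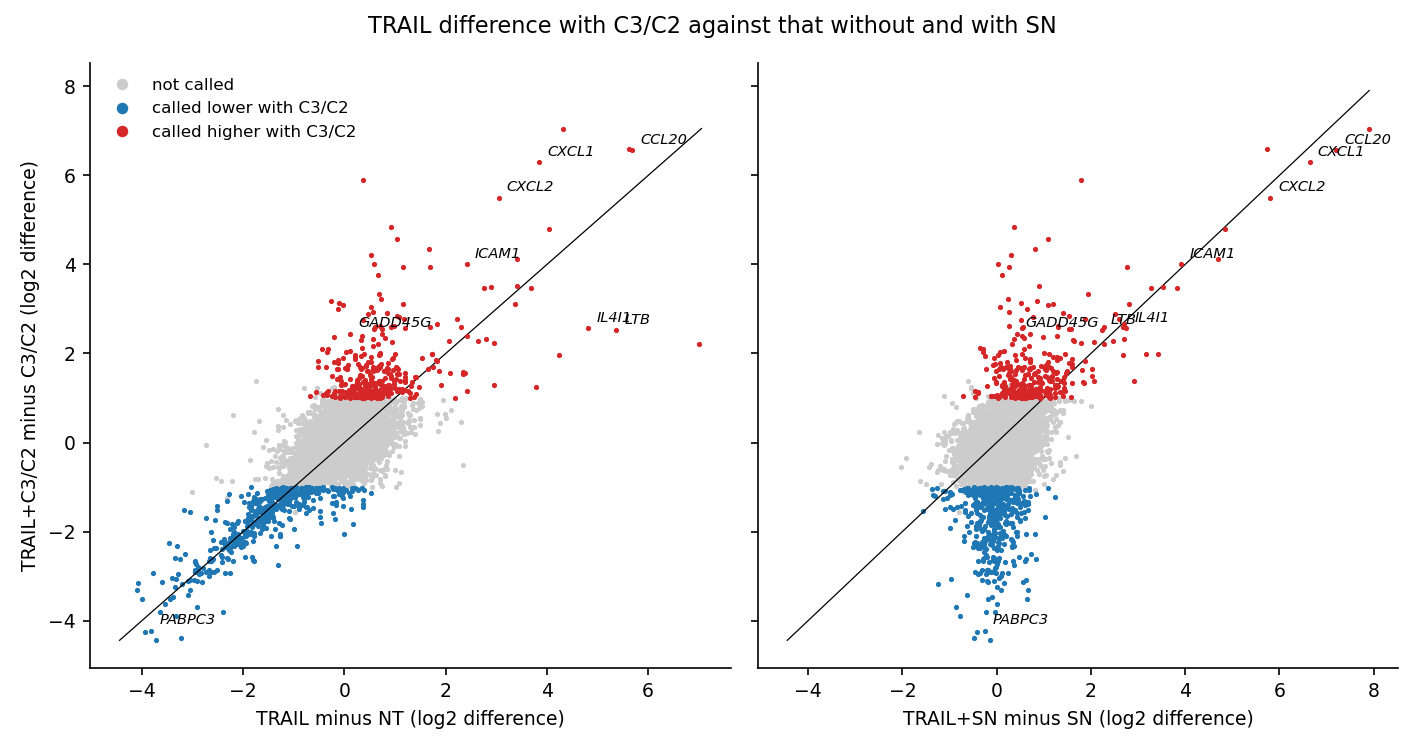
Log2 difference of TRAIL+C3/C2 from C3/C2 (vertical axis) against that of TRAIL from NT (left) and of TRAIL+SN from SN (right) for the 20703 genes tested, with genes called higher (red) or lower (blue) with C3/C2; the line marks equal differences. The called falls follow the line on the left and gather near 0 on the right, with a median of −1.50 and −0.06. On the left NT and C3/C2 are spread alike over slides, and on the right TRAIL+SN and TRAIL+C3/C2 share a slide. The part of the slide was not tested.

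The 442 falls had another pattern over the arrays. For 273 of them (61.8%) all 16 arrays of slides 3 and 4, SN without TRAIL included, lay under all 8 arrays of slides 1 and 2, which was so for 544 of all genes tested (2.63%). Among the rises, 42 of 330 (12.7%) had the reverse order, against 1.27% of all genes tested. These 42 include TNF, TNFAIP3, RELB, BIRC3, IER3, IL32, CSF2, PMAIP1, EGR1, FOSL1, EREG and PPP1R15A, for which SN also lay above C3/C2. Without genes in that order, 5 of the 9 NF-kB genes, 6 of the 11 immediate early genes, all 8 chemokines and neither survival gene were left. Over the falls the median difference of SN from NT was −1.65, and C3/C2 replicate 1, the C3/C2 array on slide 1, lay at a median of −0.57 relative to the other C3/C2 arrays. Over the rises the latter value was 0.04. The median difference of the falls was −1.50 with TRAIL alone and −0.06 with SN, and 326 of them were also called lower with TRAIL alone (73.8% of these falls and 72.1% of those with TRAIL) and 11 with SN (2.49% and 32.4%). Part of the falls remained when genes ordered by slide were left out, 169 of 442, and 288 of 330 of the rises. The part of the slide in the falls was not tested, and it cannot be told apart from the group.

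**Figure D5:**
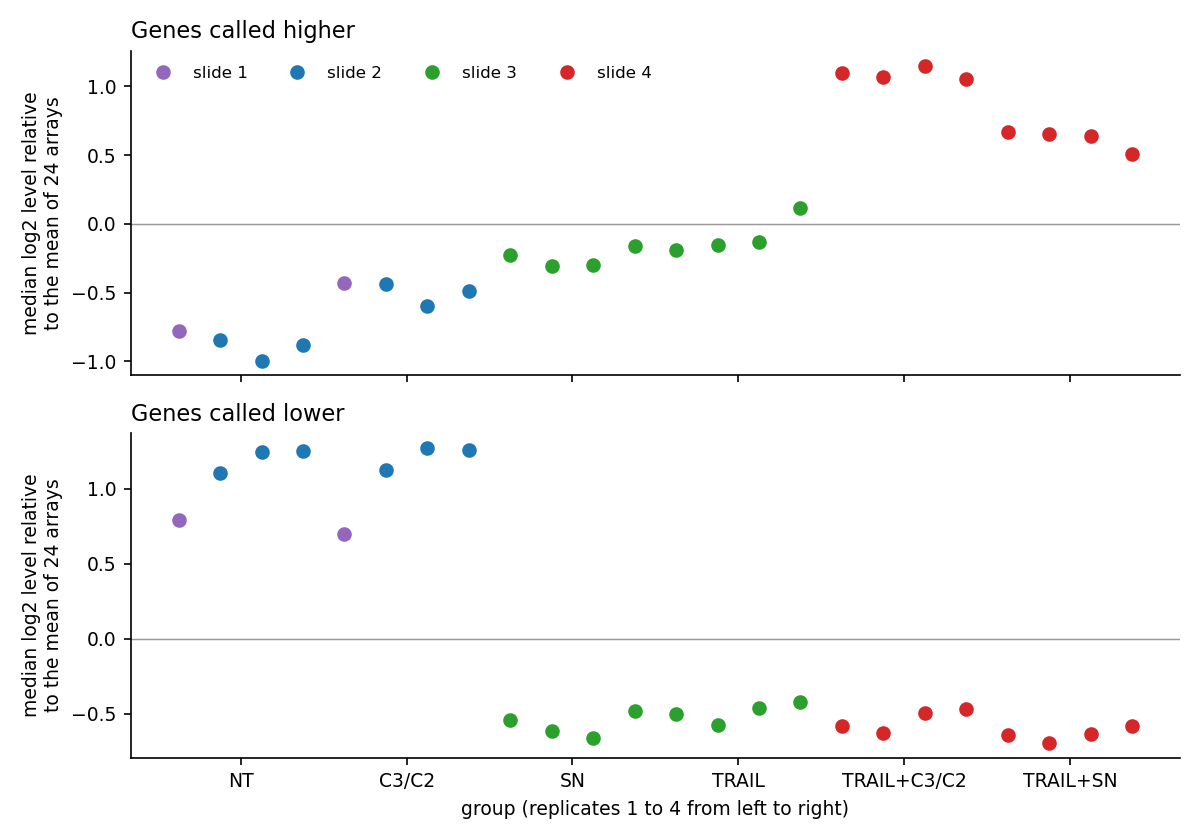
Median log2 level of the 330 genes called higher (upper panel) and the 442 called lower (lower panel) on each of the 24 arrays, relative to each gene's mean over the arrays (vertical axes), by group and coloured by slide. For the genes called lower, the arrays of slides 3 and 4 lie between −0.69 and −0.42, SN without TRAIL among them, and those of slides 1 and 2 between 0.70 and 1.27.

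PABPC3, a retrogene of the poly(A)-binding protein, was the largest fall measured in both groups among named genes. It lay at 2.68, 3.66, 4.07 and 4.01 with C3/C2 and between −0.7 and −0.52 with TRAIL+C3/C2, a difference of −4.22 (SE 0.26, limma, adjusted p = 2.46e-10). Its mean was also low with SN (−0.49) and with TRAIL (−0.40), and 3.42 in NT. NACAP1 (−3.62), DNAJA1P5 (−2.91), ANXA2P3 (−2.40) and OSTCP1 (−2.28), pseudogenes by their symbols, and ANP32C (−2.37), a retrogene, were of the same pattern, as were the zinc finger gene ZNF90 (−3.26), TWSG1 (−2.90), the RNA HCG11 (−2.64) and CCNYL1 (−2.25, and −0.91 with normexp background correction, below the fold). SNORA16B fell by 2.66 by 1 probe, while its other probe lay at 0.29. In each of these 11 genes C3/C2 replicate 1 was the lowest C3/C2 array, and all arrays of slides 3 and 4 lay below those of slides 1 and 2.

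A further 6 falls are known as bounds, since no TRAIL+C3/C2 array was well above background. DAGLA, an enzyme that makes an endocannabinoid, was at least 6.89-fold lower. MED29, a Mediator subunit, was at least 4.79-fold lower, SMURF1, a ubiquitin ligase, 4.74-fold, CSNK1A1L, a kinase, 4.58-fold, the integrin ITGA2 4.52-fold and ANO8 4.44-fold, each as a lower bound. All but ANO8 had the order by slide as well, and all but DAGLA lost the call with normexp background correction, with differences of −0.76 to −0.55. Of the falls, 11 were also called lower with SN, where slides 4 and 3 were compared. CALD1, an actin-binding protein, had the smallest adjusted p of these and was chosen after the values were seen. It lay at −3.06, −3.16, −3.37 and −3.2 with C3/C2 and at −4.7, −4.4, −5.08 and −4.74 with TRAIL+C3/C2, of which 3 of 4 were above background. The difference was −1.53 (SE 0.15, limma, adjusted p = 9.53e-08) and −1.56 with SN, against −0.48 with TRAIL alone. With normexp background correction the former was −0.29, below the fold.

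All 330 rises and all 442 falls had the same sign in replicates 1 and 2 alone and in replicates 3 and 4 alone. This comparison was added after seeing the data, and 243 rises and 342 falls reached 2-fold in each. The genes were called on these same arrays. The same sign thus follows largely from the call and is no independent check. Called in every fit that left out 1 of the 8 arrays were 259 rises and 337 falls. Without C3/C2 replicate 1 the counts were 341 and 477. The balance of rises to falls depended on scaling: it was 290 to 478 with scaling to the array median, which gives the values of the authors' table, 304 to 504 with quantile normalization and 143 to 1625 with spike-in scaling.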

How the data were processed

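Members of the comparison are the arrays labelled T+C3/C2 and C3/C2. The comparison, gene lists and rules were chosen with earlier results of these data known. The authors hybridised Cy3-labelled cRNA to 1-colour arrays and extracted spot intensity with Agilent Feature Extraction 10.7.3.1, with spatial detrending and background subtraction per the file headers. The deposited intensity is not normalized between arrays. The deposited table holds the same intensity divided by the array median (largest relative deviation 8.52e-06), and its 24 columns of detection flags were not used. The raw mean and background intensity of the deposited files served 1 alternative.

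Spots of controls were dropped, as were outlier spots (between 190 and 315 on an array), spots that share a probe were averaged, and log2 intensity taken relative to the 75th percentile. Of 50599 probes, 27957 passed the filter, which asks for every array of some group to be well above background. The probe with the highest mean stood for a gene, which left 20703 genes. Of these, 17 had a missing value on an array, and limma fitted them on the others. Group means were fitted over 24 arrays with limma 3.58.1 (R 4.3.3), 18 residual degrees of freedom. The fit was also run on simulated data with independent spread on each array. That simulation held no slide effect and no shared experiment, so it cannot speak to either. Single values were compared by exact permutation tests. Methods name 2 independent experiments in duplicate, and the labels do not say which replicates share one, so p-values measure the spread between these arrays, part of which may be technical. Samples of the same number deviated together (correlations of 0.36 to 0.50 across 17033 genes, which are not independent replicates), and 1 with 2 and 3 with 4 as well.

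Named were the 12 largest rises and falls measured on all 8 arrays without overlap, up to 6 each by bound, the 3 largest calls of each of 18 lists, all genes of the TRAIL receptor list, and the 5 largest differences of effects each way among genes above background on all arrays of the 4 groups; unnamed transcripts were left out, and 1 gene of the Y chromosome is not reported. Promoters are RefSeq's (GRCh38.p14), probe positions those of the files (hg19). Alternatives covered scaling, background, filters, blocks and left-out arrays. The authors' own software steps were not repeated. Figures were drawn with matplotlib 3.10.9.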

Additional observations from a re-analysis of the deposited data

Results flagged for a closer look

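Of 144 groups of 4 arrays tested for a stray array (72 genes, 2 groups), 6 had one, where chance flags about 1 in 20. In C3/C2, replicate 1 stood apart from the other 3 arrays in HCG11 (0.31, others 1.24 to 1.43), DAGLA (−3.29, others −2.1 to −2), ANO8 (−3.68, others −2.83 to −2.72), CASP10 (1.92, others 2.24 to 2.29) and CXCL5 (−2.33, others −1.55 to −1.41). It was the C3/C2 array on slide 1. Replicate 3 stood apart in UBD (−7.14, others −7.98 to −7.86), where no C3/C2 array was above background.

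The TRAIL difference with C3/C2 differed from that without, at 2-fold and the adjusted p of limma, for 19 of the genes named. Above 0 were CXCL1 (2.45), CXCL2 (2.45), ICAM1 (1.60), RNU6ATAC (1.79), C3 (1.53), GADD45G (2.33), CDKN2B (1.05), NCF1 (2.37 by its brighter probe) and TNFRSF4 (1.95), each measured on all arrays of the 4 groups. RRAD (2.79, not above background in NT or TRAIL), IL8 (2.73, not in NT or C3/C2) and ERO1LB (2.49, in TRAIL+C3/C2 alone) were above 0 with a base that was not measured. Below 0 were LTB (−2.84), IL4I1 (−2.25), PI3 (−1.66), MCAM (−1.58), ICAM2 (−1.46), CALD1 (−1.05) and UBD (−4.78, above background on all 4 TRAIL arrays and on 1 of 4 with TRAIL+C3/C2). Some of these calls depended on 1 array: ERO1LB lost it in 7 of the 8 fits without an array (adjusted p of 0.0554 to 0.0868), ICAM2 in 4 of them, and CDKN2B (0.99) and CALD1 (−0.93) without TRAIL+C3/C2 replicate 3.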

How the results depend on the processing

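The 330 rises and 442 falls moved by over 1.5 times with spike-in scaling (143 and 1625), normexp background correction (167 and 147) and no minimum fold (4415 and 2919). Rises also moved without a filter (1434), and falls when probes had to be above background in both groups (225), an alternative chosen after seeing the data. The TRAIL difference with C3/C2 minus that without (102 above, 34 below) gave 42 above with spike-in scaling, 33 and 10 with normexp, 67 and 17 with the filter on both groups, 361 and 235 without a minimum fold, 212 and 112 at an unadjusted p, and 64 below with the array median and with the authors' table. Against SN (91 above, 451 below) it was 17 and 206 with normexp, 49 and 288 with the filter on both groups, 1453 and 1360 without a minimum fold, 142 above without a filter and 137 above at an unadjusted p. The 273 falls ordered by slide became 138 with normexp. The cause was not tested. With the replicate number as a block, 337 genes were called higher and 445 lower, and the count below 0 against no acids rose from 34 to 53; the other counts stayed within 1.5 times.

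Leaving out 1 array gave 313 to 345 rises, 416 to 477 falls, 83 to 104 above and 29 to 40 below 0 against no acids, 83 to 94 above and 411 to 494 below 0 against SN, and 260 to 324 falls ordered by slide. Of the genes named, 10 lost the call in the comparison with normexp, 5 with spike-in scaling and 1 with quantile normalization. With replicates 1 and 2 or 3 and 4 alone, 1 each lost it. No named gene was called in the opposite direction in any setting. Spike-in scaling moved the median difference of all genes from 0.035 to −0.475, so small differences that were not called can change sign. In the difference of effects with and without acids, calls were lost for CDKN2B, ICAM2, ERO1LB and CALD1 with normexp, for CDKN2B, ICAM2, ERO1LB and C3 with spike-in scaling, for CDKN2B with the array median and the authors' table, for ICAM2 and ERO1LB without a filter, for 4 genes in replicates 1 and 2 alone, and for 6 in replicates 3 and 4 alone. Of 36 list counts, 10 moved by over 1.5 times with spike-in scaling and 3 with normexp. UBD (0.82 with normexp, 1.75 with replicates 3 and 4 alone) and BBC3 rested on the setting. Signal over background limits genes below it in a group, for which only bounds hold.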
